A study of Mus musculus with 33 samples.

Results

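Among 30815 genomic regions measured by ChIP-seq, in which DNA bound to a protein is pulled down with an antibody and sequenced, 2428 (7.88%) were enriched for the transcription factor Gata4 when it was the only factor added to cardiac fibroblasts, and were below the same threshold for Gata4, Mef2c and Tbx5 when all 3 were added. They were chosen by their measured values. Counts were summed per group and scaled to CPM, a common library total over all regions. Enrichment was the log2 ratio of ChIP to the sum of 9 input libraries after adding 5 CPM to each, and a region was called bound at 0.585 or more, a 1.5-fold enrichment. These 2428 regions were bound by Gata4 only in single-factor cells (libraries 1 to 3 of 4) and by no factor in three-factor cells.

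The cells were an immortalised line of neonatal cardiac fibroblasts of strain Cd-1 that expressed a Cre-excisable large T antigen and carried the reporter alpha-MHC-GFP. All were treated with sb431542, an inhibitor of TGF-beta signalling, and the Wnt pathway inhibitor xav939, and were collected without sorting on day 2. Three-factor cells received retroviruses for Gata4, Mef2c and Tbx5 and gave 6 Gata4, 4 Mef2c, 4 Tbx5 and 6 input libraries. Single-factor cells received 1 virus each and gave 4 Gata4, 3 Mef2c and 3 Tbx5 libraries with 1 input for each factor. A single cell line is described, and cells without virus were not analysed here. Because cells were not sorted, infected and uninfected cells were measured together.

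Direct cardiac reprogramming turns fibroblasts toward a cardiomyocyte fate by forced expression of cardiac transcription factors. Gata4 recognises GATA motifs through zinc fingers and can engage closed chromatin. Mef2c, of the MADS-box family, and Tbx5, of the T-box family, recognise other sequences and cooperate with Gata4 at heart enhancers. How the partners change the places that Gata4 occupies is the question that single-factor and three-factor cells address.

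Library totals over the regions ran from 97474 to 2377616 counts. Libraries 1 and 6 of Gata4 in three-factor cells agree within sampling noise and were counted as 1 sample, as were inputs 1 and 3 and inputs 2, 4 and 5 of these cells, which left 5 three-factor Gata4 samples and 6 inputs. The library labelled Gata4 alone number 4 lay near input over all regions (median log2 enrichment -0.03, against -0.54 to -0.67 in libraries 1 to 3). Counts in 5 regions of the Y chromosome separated the three-factor Gata4 libraries, with 138 to 209 CPM in libraries 1, 3 and 6 and 1.06 to 25.6 CPM in 2, 4 and 5, and differed among Gata4 alone libraries 1 to 4 (45.5, 284, 260 and 18 CPM). Three-factor inputs were split by the same numbers, with 37.5 to 43.1 CPM in 1, 3 and 6 and 0 to 10.3 CPM in 2, 4 and 5. These inputs had at most 12 reads there. The 3 single-factor inputs had 30.8 to 71.9 CPM. Three-factor Mef2c and Tbx5 had 11.7 CPM each in library 3 and 0 to 1.74 CPM in 2, 4 and 5. The cause of the split was not tested, nor was its part in the results beyond the values given without these libraries.

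Of 5187 regions bound by Gata4 only in single-factor cells, 46.8% fell below the threshold for every factor in three-factor cells, and 2396 (46.2%) were still bound by Gata4 only. Another 312 were bound by Gata4 with a partner, of which 194 were with Tbx5, 85 with Mef2c and 33 with both. Only 51 of the 5187 were bound in three-factor cells by a partner without Gata4, 48 by Mef2c and 3 by Tbx5. For the partners, the share of regions bound by 1 factor alone that ended below the threshold for every factor was 23.9% for Mef2c (1196 of 4999) and 9.36% for Tbx5 (465 of 4968). These shares were set by the same threshold at different depths, and their difference was not tested.

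The level of Gata4 that the 2428 regions held in three-factor cells varied widely. Their median log2 enrichment there was 0.24 (quartiles -0.36 and 0.44, range -1.60 to 0.58), and 1561 of them (64.3%) had an enrichment above 0. Because CPM is scaled to the counts within the regions, 0 is not the level of unbound regions. Regions bound by no factor in either setting had a median of -1.09. In single-factor cells the median was 1.07 (quartiles 0.83 and 1.34). As levels, the median was 33.5 CPM with all 3 factors and 71.3 CPM alone. The rule makes every difference between the settings negative, and these ran from -2.69 to -0.01. The median over all regions was -0.38 with all 3 factors and -0.59 alone, so most of the 2428 regions had more Gata4 than the median region in three-factor cells too. The name of vacated sites therefore fits them only in part, and they are called lowered regions below. Which regions met the rule depended on the scaling, since with TMM factors 2203 did, of which 1010 were among the 2428, and 1294 of the 2428 were then bound by a factor in three-factor cells.

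In three-factor cells the lowered regions formed a main mass just under the threshold and a second, smaller mass at enrichments below 0. In steps of 0.2, their number fell to 121 between -0.4 and -0.2, against 156 between -1 and -0.8 and 776 between 0.4 and 0.6. Boundaries at -0.2 and 0.2 were set after these values were seen, and the subsets they define are descriptions. Below -0.2 lay 714 regions (29.4%), from -0.2 to 0.2 lay 421 (17.3%), and at 0.2 or more lay 1293 (53.3%).

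**Figure D1:**
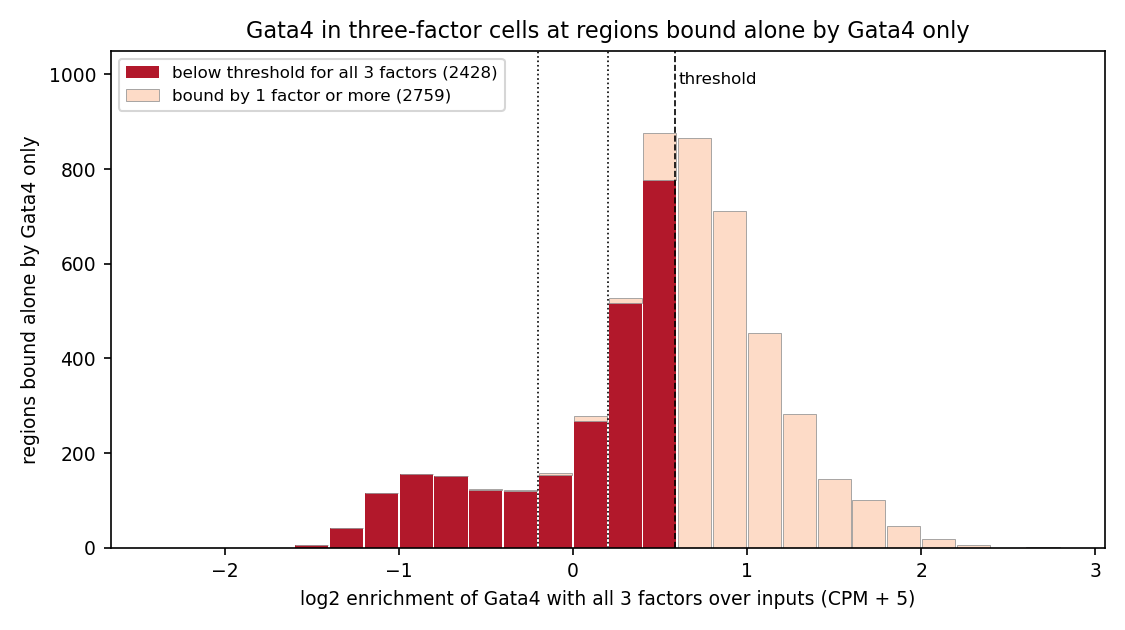
Number of regions bound in single-factor cells by Gata4 only (y axis) by their log2 enrichment of Gata4 over input in three-factor cells (x axis, steps of 0.2). Dark bars are the 2428 lowered regions and pale bars the other 2759, which were bound by 1 factor or more; the dashed line is the threshold of 0.585 and the dotted lines are at -0.2 and 0.2. The dark bars reach 776 in the step that holds the threshold and have a smaller peak of 156 near -0.9.

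The 714 lowest regions came close to regions that no factor bound. Their median Gata4 enrichment was -0.75 with all 3 factors and 0.89 alone, or 16.7 CPM against 66.1 CPM. In 10106 regions bound by no factor in either setting the medians were -1.09 and -1.06, or 11.8 and 12.4 CPM. Mef2c and Tbx5 were also low at these 714 regions in three-factor cells (medians -1.73 and -1.47). By sample, the three-factor medians at the 714 regions were -0.94, -0.61, -0.57, -0.95 and -0.76, against -1.44, -0.69, -0.76, -0.96 and -1.25 at regions of no factor. The sets were thus close in samples 2, 3 and 4 and farther apart in samples 1 and 5, where the 714 regions held more Gata4.

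The 1293 highest of the lowered regions kept a good part of their Gata4. Their median enrichment was 0.44 with all 3 factors and 1.13 alone, or 42.1 CPM against 72.6 CPM, a median difference of -0.71 on the log2 scale. At the 2396 regions still bound by Gata4 only, the medians were 0.88 and 1.35 and the difference was -0.42. The enrichment of Gata4 was lower with all 3 factors at 87.7% of the retained regions as well. The retained regions were also chosen on the values compared here, so nothing is read from this share or from their median difference. Over all regions the median difference was 0.12. A difference of -1 or below was found at 53% of the lowered regions, against 6.43% of the retained and 10.5% of all regions, and since the rule used these values they describe the choice and support nothing.

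**Figure D2:**
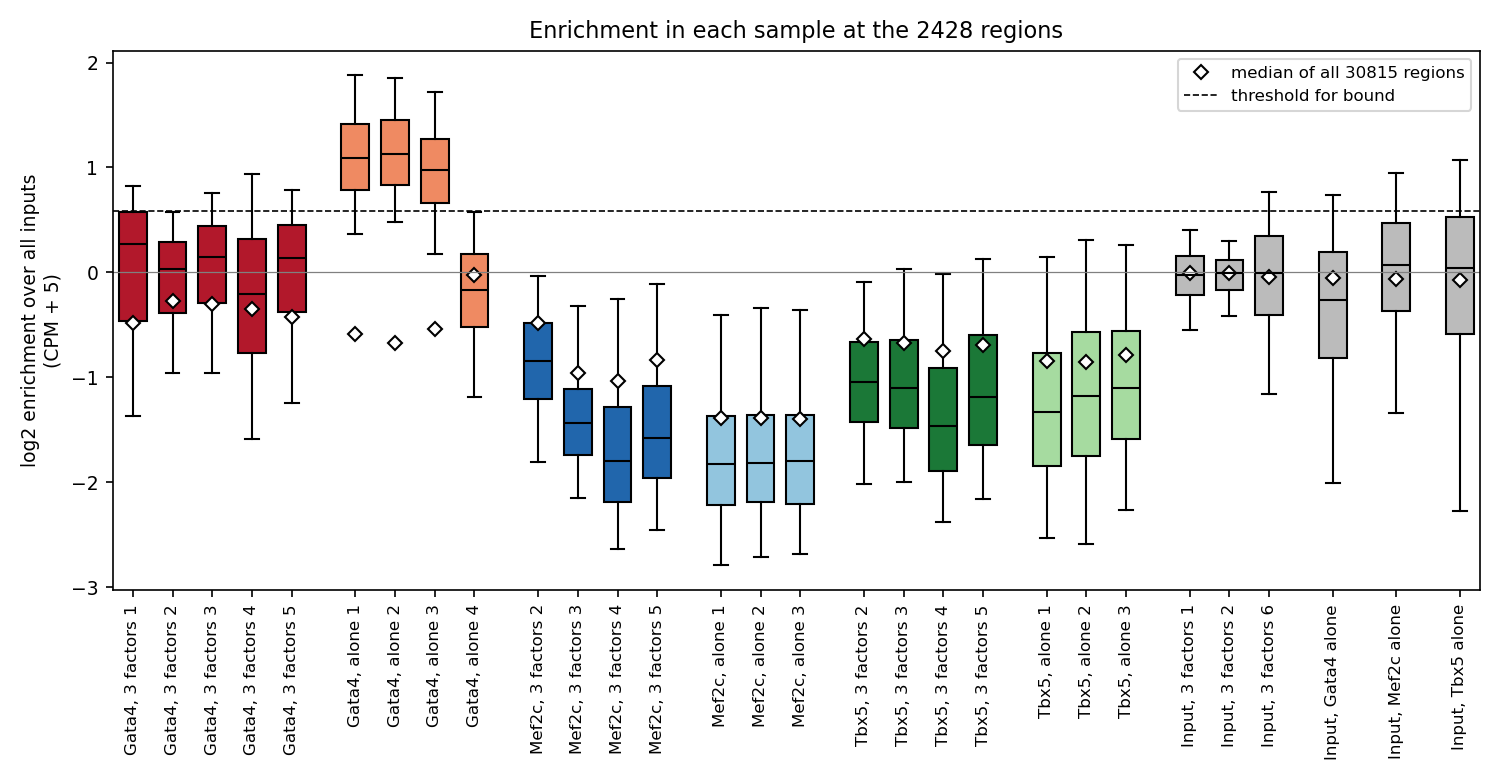
Log2 enrichment over all inputs (y axis) at the 2428 lowered regions in every sample, with boxes for the quartiles, a line for the median and whiskers from the 5th to the 95th percentile. White diamonds are the median of all 30815 regions and the dashed line is the threshold. Boxes of Gata4 with all 3 factors lie around 0, those of Gata4 alone 1 to 3 above the threshold, that of Gata4 alone 4 among the inputs, and the medians of Mef2c and Tbx5 lie below -0.8.

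The 5 three-factor Gata4 samples had medians of 0.27, 0.03, 0.15, -0.21 and 0.13 at the lowered regions. Libraries 1 to 3 of Gata4 alone had 1.09, 1.13 and 0.97, and library 4, which the rule did not use, had -0.17. All 5 three-factor medians were below those of the 3 libraries that chose the regions, and library 4 fell within their range. In library 4, 4.9% of the lowered regions reached the threshold, against 9.92% of all regions and 12.4% of the retained regions. The share of a library's counts that fell in the lowered regions was 7.62 to 9.33% in the three-factor Gata4 libraries, 17.6 to 20.1% in libraries 1 to 3 of Gata4 alone, 7.43% in library 4 (95% Wilson interval 7.32 to 7.54%, counting error only) and 7.14 to 9.02% in the inputs. Library 4 therefore did not show the enrichment, at these regions or at the retained ones (median 0.01).

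Because the regions were chosen on these libraries, the choice was repeated without each library in turn and the omitted library was read out. The same summed input entered the choice and the readout, so the omitted library was not fully independent of the choice. Regions chosen without Gata4 alone library 1, 2 or 3 had medians of 1.07, 1.12 and 0.91 in the omitted library, and 83.4, 85.1 and 71.6% of them reached the threshold there. Over all regions, 22, 21.3 and 20.4% reached it in those libraries. Among the regions below -0.2 with all 3 factors, the omitted libraries had medians of 1.05, 0.87 and 0.52, so that 78.6, 72.6 and 45.9% reached the threshold. At regions at 0.2 or more the shares were 83.5, 89.8 and 86.3%. From the choice without library 1, 2 or 3, the lowest subset lost 144 (20.2%), 63 (8.82%) and 27 (3.78%) of its 714 regions. The subset at 0.2 or more lost 36 (2.78%), 56 (4.33%) and 64 (4.95%). On this measure the lowest subset depended more on libraries 1 and 2, but not on library 3.

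On the three-factor side, regions chosen without a sample had medians in it of 0.42, 0.00, 0.16, -0.17 and 0.17 for samples 1 to 5, with samples 1 and 6 left out together as the first. Regions that the other samples placed below -0.2 had medians of -0.92, -0.60, -0.55, -0.94 and -0.71 in the omitted sample, and at most 0.7% of them reached the threshold there. Regions that the others placed at 0.2 or more had medians of 0.67, 0.26, 0.41, 0.26 and 0.46. From 13 to 62.3% of them reached the threshold, against 51.5 to 90.7% of retained and 15.6 to 22.5% of all regions. The 13% was in sample 2, where 15.6% of all regions reached it. The low state of the first subset was seen again in every omitted sample, over the same summed input that entered the choice. A region whose input count is high by chance is low in both, so this readout is not independent of the choice. Regions near the threshold passed it more often than all regions in samples 1, 3, 4 and 5, most often in sample 1, but not in sample 2.

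**Figure D3:**
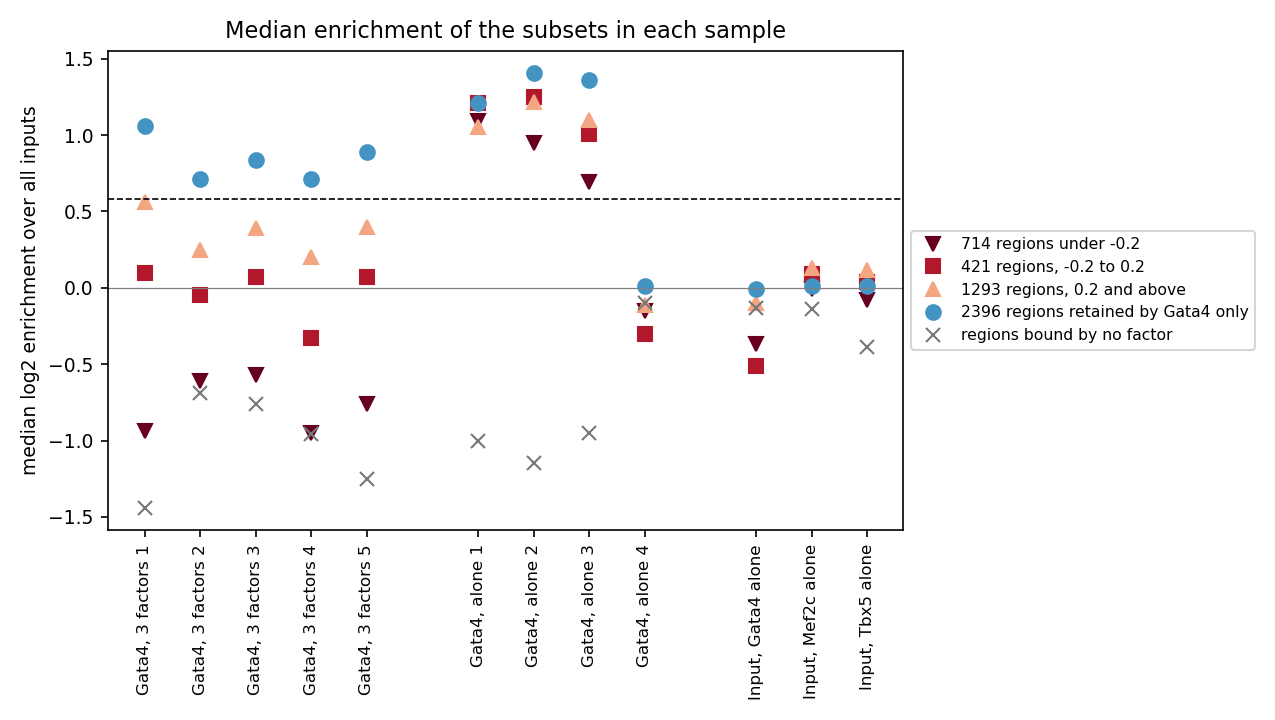
Median log2 enrichment over all inputs (y axis) in the 5 three-factor Gata4 samples, the 4 Gata4 alone libraries and the 3 single-factor inputs, for the 3 subsets of lowered regions, the retained regions and the regions bound by no factor. With all 3 factors the subsets lie from -0.95 to 0.56, whereas in Gata4 alone libraries 1 to 3 they lie between 0.69 and 1.25, and in Gata4 alone 4 between -0.30 and -0.11.

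In each three-factor Gata4 sample, 1767 of the lowered regions (72.8%) had fewer CPM than in any of libraries 1 to 3 of Gata4 alone, which held for 15.4% of all regions. This was so for 696 of the 714 lowest regions and 709 of the 1293 highest, and for 675 of the retained regions (28.2%). With library 4 included, 493 (20.3%) did not overlap, against 6.24% of all regions. The rule used all of these samples except library 4, so nothing is read from these counts. In edgeR's quasi-likelihood test of Gata4 with all 3 factors against alone, fitted on all regions with library 4 kept, 1335 of 2367 tested lowered regions were called lower and 0 higher at an adjusted p under 0.05. The background was 15.2% called lower, and since this contrast chose the regions nothing is read from the count. The calls fell at 660 of 662 tested regions of the lowest subset, 303 of 417 of the middle one and 372 of 1288 of the highest, and at 164 of 2381 retained regions. Without library 4, 1898 lowered regions were called lower (background 23.7%), and without library 2 of Gata4 alone 854 were, beside 1891 of all 21548 tested. With only three-factor libraries 1, 3 and 6 the count was 541, beside 1177 of all 22571. It was 1591 with these against libraries 1 to 3 of Gata4 alone, beside 4063 of all 20411.

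Lowered regions were most frequent where Gata4 alone was weakest. The 5187 regions were divided into 4 bins of equal size by their enrichment in single-factor cells. From the weakest bin (0.59 to 0.90) to the strongest (1.5 to 3.14), 59.2, 54.8, 48.6 and 24.7% were lowered, and 28.2, 14, 9.79 and 3.16% fell below -0.2. Regions retained by Gata4 only made up 30.8, 37.5, 46.3 and 70.1% of the bins. This ordering uses the values of the rule and supports nothing. In the other direction, 41 of the 320 lowered regions of the strongest bin (12.8%) had an enrichment below -0.2 with all 3 factors.

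**Figure D4:**
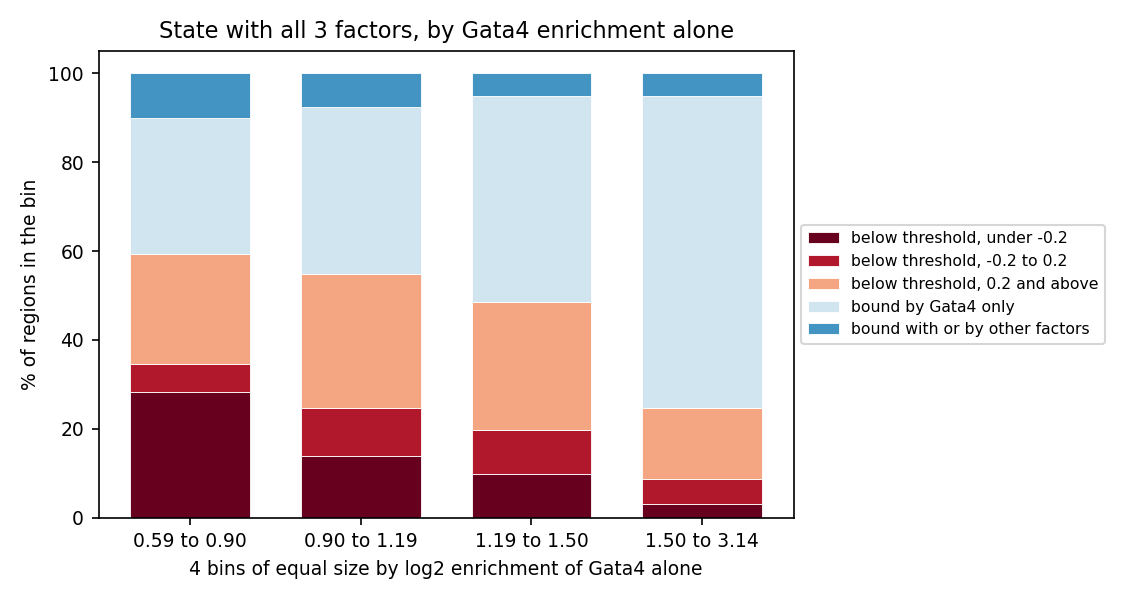
Share of regions (y axis, %) in each state in three-factor cells, for 4 equal bins of the 5187 regions by their log2 enrichment of Gata4 alone (x axis). Shades of red are the lowered regions by their three-factor enrichment and blues the regions bound by a factor; the red share is 59.2% in the weakest bin and 24.7% in the strongest.

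The lowered regions with the highest Gata4 enrichment alone are named in order of rank, with mm9 coordinates. At chromosome 5, 5610421 to 5610643, Gata4 had 23.4, 14.4, 19.5, 17 and 17 CPM in three-factor samples 1 to 5, against 89, 113, 94.6 and 22.4 CPM in Gata4 alone libraries 1 to 4. The three-factor samples were all below libraries 1 to 3 and overlapped only with library 4. Means were 18.2 ± 3.38 CPM with all 3 factors (SD, n = 5) and 99 ± 12.8 CPM in libraries 1 to 3 (n = 3), while inputs ran from 0 to 19.3 CPM. At chromosome 7, 133366639 to 133366903, the values were 18.3, 22.7, 24.8, 8.52 and 27.6 CPM with all 3 factors, against 124, 105, 74.8 and 13.5 CPM alone. Here too library 4 was the only one within the three-factor range, and the input of Gata4 alone cells, at 46.9 CPM, was the highest of 6 inputs. At chromosome X, 12437741 to 12438030, Gata4 had 21.2, 15.6, 15.9, 19.9 and 23.4 CPM with all 3 factors, against 95.2, 96.4, 106 and 13.5 CPM alone. Mef2c was nearer its threshold at this region than at the others named, with an enrichment of 0.45 and 19.6 ± 7.43 CPM with all 3 factors (n = 4), against -0.31 and 11.4 ± 6.17 CPM alone (n = 3).

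At chromosome 5, 98722498 to 98722704, Gata4 had 29.2, 15.6, 33.6, 11.4 and 20.2 CPM with all 3 factors, against 66.2, 103, 90.2 and 22.4 CPM alone. Tbx5 stood just under its threshold in single-factor cells there, with an enrichment of -0.36 with all 3 factors and 0.57 alone (9.78 ± 2.15 CPM, n = 4, against 23.4 ± 5.46 CPM, n = 3). At chromosome 6, 135378425 to 135378630, Gata4 had 8.03, 10.8, 8.85, 5.68 and 4.25 CPM with all 3 factors, against 60, 62.6, 90.2 and 18 CPM alone. This was the only region of the first 6 below -0.2 with all 3 factors (-0.35), and every three-factor sample was below every library of Gata4 alone, library 4 included. At chromosome 17, 78800967 to 78801221, Gata4 had 24.1, 26.3, 30.1, 22.7 and 30.8 CPM with all 3 factors, against 97.3, 103, 77 and 18 CPM alone. Its three-factor enrichment of 0.58 was just below the threshold although the level was far below that of libraries 1 to 3, and inputs at this region were low, with a median of 16.9 CPM. The regions ranked 7 to 10 began at chromosome 13, 49863532, chromosome 17, 74438357, chromosome 10, 96946622, and chromosome 9, 60184027. Their means ran from 15.4 to 42.7 CPM with all 3 factors and from 89.8 to 154 CPM in libraries 1 to 3.

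**Figure D5:**
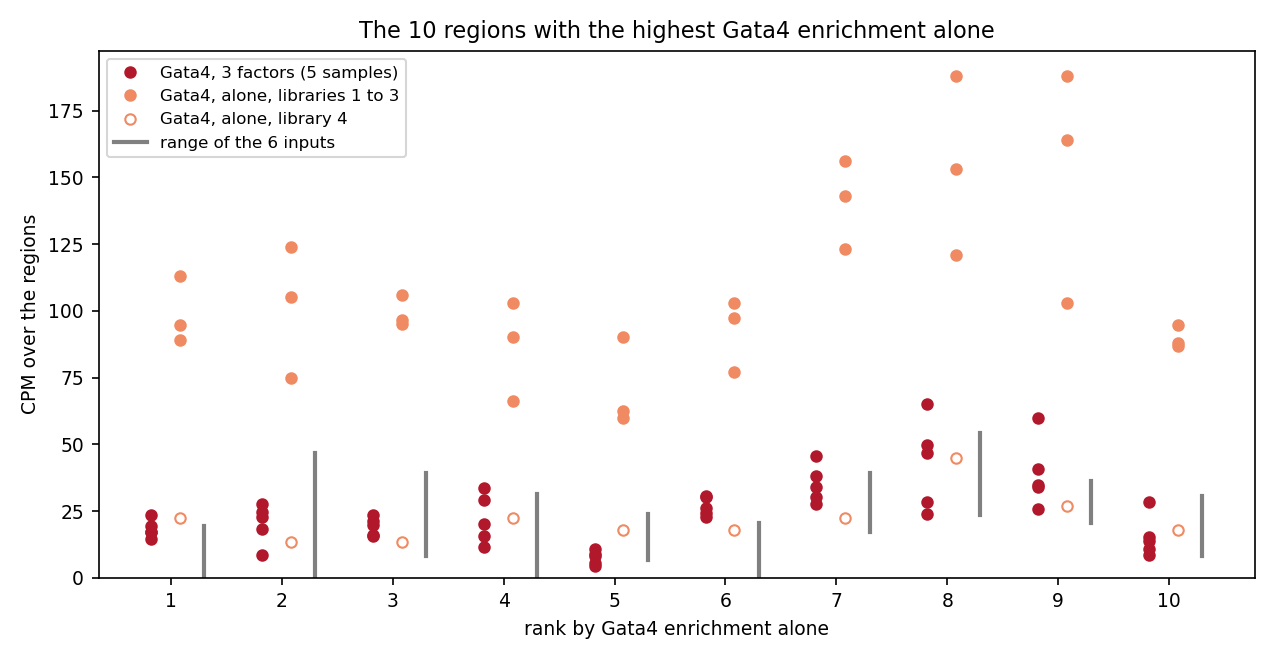
CPM (y axis) at the 10 lowered regions with the highest Gata4 enrichment alone (x axis, by rank), in the 5 three-factor Gata4 samples, in Gata4 alone libraries 1 to 3 and 4, and as a range over the 6 inputs. At rank 1 the three-factor samples lie at 14.4 to 23.4 CPM and libraries 1 to 3 at 89 to 113 CPM; at each rank the dark points lie below the filled pale ones.

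The regions at the edge of the single-factor threshold were of several kinds. Just inside the single-factor threshold lay chromosome 14, 73924628 to 73924914, with 73.5 ± 22.4 CPM with all 3 factors (n = 5) and 84.8 ± 20.7 CPM in libraries 1 to 3 (n = 3), whose values overlapped. Next to it lay chromosome 16, 33836756 to 33836962 (28.7 ± 7.14 and 28.5 ± 15.8 CPM), and chromosome 5, 130740514 to 130740818 (23.6 ± 10.6 and 80.5 ± 0.937 CPM). Just outside lay chromosome 16, 93711093 to 93711298 (33.9 ± 10.8 and 36.7 ± 2.29 CPM), and chromosome 10, 26969701 to 26969901 (13.2 ± 6.41 and 44.1 ± 4.32 CPM). Groups did not overlap at chromosome 5, 130740514, or at chromosome 10, 26969701, where libraries 1 to 3 lay at 79.5 to 81.4 and at 41.4 to 49.1 CPM. The remaining one just outside, chromosome 11, 114595480 to 114595680, had 10.4 ± 5.51 CPM with all 3 factors and 72.4, 30.5 and 24.2 CPM in libraries 1 to 3, with library 1 apart. Its three-factor samples, at 2.19 to 15.6 CPM, did not overlap with libraries 1 to 3 either. On the three-factor side, 443 lowered regions (18.2%) were within 0.1 of the threshold, and on the single-factor side 231 (9.51%) were.

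The least Gata4 with all 3 factors relative to input was at chromosome 4, 52599881 to 52600367, with 11, 23.9, 31.9, 25.6 and 6.38 CPM, against 95.2, 94.7, 119 and 53.9 CPM alone. All 5 samples were below all 4 libraries of Gata4 alone, and below the input median of 58.5 CPM. It was followed by chromosome 7, 130100069 to 130100274 (6.1 ± 2.8 and 42.7 ± 5.03 CPM), and chromosome 9, 122107982 to 122108187 (5.9 ± 3.55 and 52.7 ± 17.6 CPM). At the opposite end, chromosome 1, 61017397 to 61017691, had 44.7 ± 17.4 CPM with all 3 factors and 90 ± 26 CPM alone. Chromosome 6, 115236959 to 115237416, had 108 ± 24 and 133 ± 12 CPM, and chromosome 3, 122689223 to 122689623, had 75.8 ± 13.4 and 148 ± 20.4 CPM. All of these 3 had an enrichment of 0.58 with all 3 factors.

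Library 4 of Gata4 alone had its highest levels among lowered regions at wide ones with many reads. At chromosome 11, 43833324 to 43833998, it had 144 CPM, where three-factor samples had 102 to 171 CPM and inputs 41 to 133 CPM. Next came chromosome 8, 80451344 to 80451898, with 117 CPM in library 4, against an input range of 41 to 120 CPM. At the third, chromosome 15, 33836953 to 33837390, Gata4 had 31.4, 39.5, 51.3, 8.52 and 17 CPM with all 3 factors, against 122, 135, 99 and 112 CPM alone. There library 4 was at the level of libraries 1 to 3, above every three-factor sample and above the highest input, at 81.9 CPM.

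Set against input by edgeR, with all regions fitted, the 2 settings of Gata4 differed in how many lowered regions were called. With all 3 factors, 331 of 2089 tested were called higher than input, all in the subset at 0.2 or more, and 230 lower, all in the subset below -0.2. The backgrounds were 29.8% higher and 28.2% lower, 57.9% in all. For Gata4 alone 1749 of 2250 tested were called higher than input and 0 lower, with a background of 23.7% higher. At the retained regions 2202 of 2231 and 1841 of 2023 were called higher. Both contrasts entered the rule, so nothing is read from these counts. The split with all 3 factors depended on the scaling, which moved all regions as well. Library totals gave 2 higher and 349 lower, beside 4271 and 7944 of all 22925 tested, and put the median log2 change of all regions at -0.20, against 0.07 with TMM. DESeq2 gave 36 and 239, beside 4912 and 6273. Leaving out 1 sample put the count called higher at 4 to 901 with all 3 factors and at 85 to 2418 alone, lowest without the merged inputs 2, 4 and 5 in both cases. The lowest fits also tested and called fewer regions in all, with 5368 of 16100 and 1143 of 6708 called in either direction.

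The partner factors were low at the lowered regions in both settings, as the rule required. Mef2c had a median enrichment of -1.53 with all 3 factors and -1.80 alone, and Tbx5 -1.19 and -1.21, whereas all regions had -0.91 and -1.40 for Mef2c and -0.67 and -0.86 for Tbx5. At the retained regions the partners were somewhat higher with all 3 factors (Mef2c -1.15, Tbx5 -0.52). Only 832 lowered regions passed the filter on low counts for Mef2c, and of these 118 were called higher with all 3 factors than alone and 78 lower, against backgrounds of 31.3% and 28.8% (60.1% in all). The direction of this split was not stable and moved with that of all regions. Scaling by library totals gave 217 and 32, beside 7566 higher and 4256 lower of all 19391 tested, and put the median log2 change of all tested regions at 0.47, against 0.15 with TMM. With no filter the split was 57 and 157, beside 4419 and 7001 of all 30814. For Tbx5, 27 of 776 were called higher and 56 lower, against backgrounds of 18.8% and 14.9% (33.7% in all). In the lowest subset 21 of 83 tested were called lower for Tbx5 and 0 higher. Filtering left out the regions with the fewest reads of each partner, so these counts do not describe the lowered regions as a whole. Leaving out 1 library put the calls in both directions at 115 to 260 for Mef2c and 45 to 135 for Tbx5, lowest without three-factor library 5 of either.

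Input chromatin was examined at the lowered regions because the rule used only the sum of all inputs. In edgeR's test of three-factor inputs against single-factor inputs, 0 of 853 tested regions were called (0%), 77 of them lowered regions, with 43 and 2 at an unadjusted p under 0.05. DESeq2 called 0 as well, with 29 and 1 at that level. Few regions passed the filter at the depth of the inputs. With no filter 0 of 30815 were called, with 1686 regions and 119 lowered ones at an unadjusted p under 0.05. In single libraries the median enrichment at the lowered regions was -0.26 in the input of Gata4 alone cells, against -0.04 to 0.07 in the other 8 input libraries. In that input it was -0.37, -0.51 and -0.10 in the subsets below -0.2, between and at 0.2 or more, and -0.01 at the retained regions. The input of the same cells was thus low where the lowered regions were chosen, in 1 library of 127871 counts. Its part in the choice was not tested, and when Gata4 alone was set against its own input and three-factor groups against theirs, 3820 regions met the rule, of which 1936 were among the 2428.

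The lowered regions resembled the retained ones in width and lay farther from other regions. They were 201 to 881 bp wide with a median of 258 bp, against 256 bp for retained regions and 234 bp for all. The subset below -0.2 was narrower, with a median of 231 bp and 40.5% at 210 bp or less, against 269 bp and 24.3% in the subset at 0.2 or more. The widest lowered region, at chromosome 10, 98267955 to 98268835, had 119 ± 51.1 CPM with all 3 factors (n = 5) and 275 ± 70.2 CPM alone in libraries 1 to 3. After it came chromosome 9, 59318127 to 59318963 (74.3 ± 20.7 and 163 ± 40.9 CPM), and chromosome 19, 41796177 to 41796987 (72.1 ± 12.6 and 146 ± 43 CPM).

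The nearest other region lay at a median of 13.9 kb from a lowered region, against 9.93 kb from a retained one and 12.8 kb over all regions. Another lowered region lay within 10 kb of 176 of them (7.25%), against 7.6% of retained and 4.63% of all regions, and a retained region within 10 kb of 172 (7.08%), against 14.8% of retained and 5.62% of all regions. Linked by gaps of at most 10 kb, 2252 stood singly, 85 groups held 2 and 2 held 3. The groups of 3 spanned chromosome 11, 62819281 to 62825686, with three-factor enrichments of 0.45, 0.48 and 0.37, and chromosome 2, 180697381 to 180701877, with -0.37, 0.22 and 0.54. At 1252 other regions within 10 kb of a lowered region the median difference of Gata4 with all 3 factors minus alone was -0.03. It was 0.20 at 27135 regions with no lowered region that near. Both sets included retained regions, 182 of them among the 1252, and these were chosen on the same values. At 1114 regions within 10 kb of a retained region, themselves neither retained nor near a lowered one, it was 0.22.

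By chromosome, lowered regions made up 5.87% of regions on chromosome 4 and 10.1% on chromosome 13 at the extremes of the autosomes, 6.06% on X and 0 of 5 regions on Y. As a share of regions bound by Gata4 only in single-factor cells, they ran from 32.5% on X to 54.1% on chromosome 3 over the autosomes and X, and were 0 of 5 on Y. The input of Gata4 alone cells itself varied by chromosome relative to the three-factor inputs, with log2 ratios of 0.24 on chromosome 13, 0.22 on 12, -0.25 on 15 and -0.26 on 8. Across the 19 autosomes this ratio and the share of lowered regions among all regions had a Pearson r of 0.67 and a Spearman rho of 0.51. With X they were 0.45 and 0.36. For the share of regions bound by Gata4 only in single-factor cells, r was 0.62 and rho 0.47, and with X 0.26 and 0.32. The ratio of Gata4 alone to Gata4 with all 3 factors in regions of no factor was also set against both shares. For the first share r was 0.19 and rho 0.04 across the autosomes, and 0.42 and 0.16 with X. For the second they were 0.10 and 0.10, and with X 0.51 and 0.23. Across the autosomes the input ratio thus had the higher r for both shares. With X it had the lower r for the second share. These are descriptions over chromosomes and carry no test, and the input ratio rests on 1 library of Gata4 alone cells. The shares of all regions were 10.1% on 13, 8.61% on 12, 6.34% on 15 and 6.66% on 8.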

How the data were processed

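The authors deposited raw counts of reads in each region, as whole numbers, in 1 table for the 33 libraries. The submitters' processing notes name FastQC, Bowtie2 2.2.4, featureCounts and mm9. How regions were selected, how duplicates were handled and which aligner settings were used is not given in the sources used here, and region selection bears on every count of bound regions. A genome or annotation of mm9 was not used here, so no gene, motif or sequence is given.

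Groups came from the sample titles. Gata4 was compared between three-factor and single-factor cells and with input, each partner between the settings, and the inputs with each other. Each fit on all regions used edgeR 4.0.16 (quasi-likelihood F test, robust, TMM, minimum count 10 and minimum total 15), with Benjamini-Hochberg adjustment over the regions tested, two-sided, called at 0.05. Agreement of libraries was checked with a chi-square test of counts. Library totals are sums over the regions. At the lowered regions the median counts behind an enrichment were 136 for Gata4 with all 3 factors, 109 alone and 53 for input, so counting error alone is sizeable for single regions. The labels call libraries biological replicates, and p-values measure the spread between them.

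Regions named were the 10 with the highest Gata4 enrichment alone, the 3 just inside and just outside the single-factor threshold, the 3 highest and lowest with all 3 factors, the 3 widest, and the 3 highest in Gata4 alone library 4. The members, lists and subsets were chosen with earlier results of these data known. The fits were tested on simulated data. Alternatives included DESeq2 1.42.0, library totals, no filter, other thresholds, pseudocounts and inputs, and leaving out each library. Work was done in R 4.3.3 and Python 3.11.15.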

Additional observations from a re-analysis of the deposited data

Results flagged for a closer look

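Gata4 alone library 4 had a median log2 enrichment of -0.17 at the lowered regions, far from 0.97 to 1.13 in libraries 1 to 3. It was also far below them at chromosome X, 12437741 (13.5 CPM, against 95.2 to 106), at chromosome 9, 60184027 (18 CPM, against 86.9 to 94.6), and at chromosome 5, 130740514 (44.9 CPM, against 79.5 to 81.4). All these regions were chosen on libraries 1 to 3 and not on library 4, so the comparison is uneven and leans to a lower value in library 4. Libraries 1 to 3 had medians of 0.91 to 1.12 at regions chosen without them. Over all regions library 4 had a median of -0.03, against -0.54 to -0.67 in libraries 1 to 3. The part of the choice in the values of library 4 was not tested. The input of Gata4 alone cells had a median of -0.26, against -0.03 to 0.07 in the other 5 input samples. Among three-factor Gata4 samples, sample 4 was low at chromosome 8, 80451344 (34.1 CPM, against 106 to 120), and sample 2 was high at chromosome 9, 122107982 (12 CPM, against 3.19 to 5.68). These were 7 of 73 groups of values examined, many of them of the same samples, and chance alone also sets a sample this far apart in some groups. Causes were not tested.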

How the results depend on the processing

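The number of lowered regions was 2428 and ran from 2259 to 2608 when each Gata4 library was left out. Other settings gave 1924 to 2854, apart from 3820 with each Gata4 setting over its own inputs, an alternative chosen after seeing the data. A similar number did not mean the same regions, since 1394 of the 2428 remained at a 2-fold threshold, 1236 at 1.2-fold and 1010 (41.6%) with TMM factors, where 1294 were lost because a factor was bound in three-factor cells.

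Called lower for Gata4 with all 3 factors against alone were 1335 lowered regions, 541 with only three-factor libraries 1, 3 and 6, and 854 to 1898 with each sample left out (854 without Gata4 alone 2). Called higher than input for Gata4 alone were 1749, or 958 with library totals, 952 with every library counted by itself, 0 with single-factor inputs only (0 of all 8439 tested), and 85 to 2418 with a sample left out. Of all regions tested, 4812 were called higher, and 2961, 2684 and 0 in the first 3 of these settings. Lowered regions called higher than input for Gata4 alone numbered 322, 228 and 339 without Gata4 alone 1, 2 and 3. They numbered 86 without the merged three-factor inputs 1 and 3, and 85 without the merged 2, 4 and 5 (6635 and 6708 regions tested). With all 3 factors 331 were higher than input, or 36 with DESeq2, 2 with library totals, 987 with no filter, 0 with every library counted by itself, 745 and 181 with only three-factor libraries 1, 3 and 6 or 2, 4 and 5, and 775 with three-factor inputs only. Of all regions tested, 6823 were called higher, and 4912, 4271, 8981, 2982, 7233, 5703 and 8372 in these settings in the same order. The number of lowered regions called higher with all 3 factors ran from 4 to 901 with a sample left out. It was 137, 201 and 901 without three-factor Gata4 1, 3 and 4, 12, 4 and 88 without three-factor inputs 1 and 3, 2, 4 and 5, or 6, and 120 and 197 without the inputs of Gata4 alone and Mef2c alone. Mef2c calls (196) ran from 115 (without three-factor Mef2c 5) to 260, with 128 without Mef2c alone 3. Tbx5 calls (83) ran from 45 to 135, with 51, 135 and 45 without three-factor Tbx5 3, 4 and 5, and 46 and 48 without Tbx5 alone 2 and 3. Input calls stayed at 0 in every setting run. The cause of these shifts was not tested.

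With the replicate number as a block, 1065 lowered regions were called for Gata4, 231 for Mef2c and 80 for Tbx5, on samples whose number occurs in both groups only. For Gata4 this fit left out three-factor sample 5, and over all regions it called 4641, against 4961 (1170 lowered regions) without that sample and no block and 6589 with it. Same-numbered three-factor and single-factor samples of a factor did not deviate together throughout (r from -0.19 to 0.15), so the numbers do not pair these settings. Whether they pair three-factor ChIP libraries with inputs or with each other was not tested. Counts on the Y chromosome split three-factor Gata4 libraries and inputs by the same numbers, and the fits against input used no pairing. The input test covered 853 regions, or 4562 with every library counted by itself.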
